A study of Mus musculus with 16 samples.

Results

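The 9 mouse genes followed here are Gna15, Nt5e, Chst3, Acsbg1, Mical2, Fmnl3, Filip1l, Agap1 and Odf3l1. They were picked by name because prostate cancer vesicles alone moved them further from the saline control at 48 h than the cytokine RANKL did, so their 48 h values are given as a description and were not tested. The table holds 20490 genes, of which 10365 reached 1 RPKM (reads per kilobase of gene length, scaled to the size of the library) in at least 2 libraries and were tested. All 9 genes passed that filter. Nt5e passed only through the 4 libraries of vesicles alone, and Acsbg1 reached 1 RPKM in 6 libraries, all of them with vesicles. Odf3l1 reached it in 8 libraries, of which only 1, a PBS library at 48 h, was without vesicles. On the scale of log2(RPKM + 1) the stated reason holds in full for 8 of the 9 genes. For Nt5e it depends on that scale, since its mean RPKM at 48 h was 4.32 times that of PBS with vesicles and 0.214 times with RANKL. Gna15 moved up with vesicles and further down with RANKL, so its change with vesicles was the smaller of both in size.

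RNA was sequenced from RAW264.7 cells, a mouse macrophage line that turns into osteoclasts, the bone-resorbing cells, when given RANKL. The vesicles were extracellular vesicles of PC3M cells, a metastatic human prostate carcinoma line. After 12 h of attachment the cells received vesicles (30 µg/mL) plus RANKL (10 ng/mL), vesicles alone (30 µg/mL), RANKL alone (10 ng/mL) or PBS, for 48 h or 72 h. The 16 libraries thus form 8 groups of 2. All groups share the one cell line and its medium with fetal bovine serum, and the saline cultures differ from the rest only in the vesicles and RANKL named above. Nothing in the labels says that the libraries of a group are separate cultures.

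Several of these genes sit where a macrophage meets its surroundings. G protein alpha subunits pass signals from surface receptors to enzymes such as phospholipase C, and Gna15 encodes a subunit of this kind found mainly in blood cells. Nt5e encodes CD73, a surface enzyme that makes adenosine from AMP outside the cell, and adenosine acts on macrophages through its own receptors. Chst3 encodes a Golgi enzyme that adds sulphate to chondroitin, a sugar chain of the extracellular matrix, and Acsbg1 encodes a synthetase that couples fatty acids to coenzyme A. Mical2 encodes an enzyme that oxidises actin, Fmnl3 a formin that builds actin filaments, and Filip1l a protein related to a filamin partner. Actin is rearranged in osteoclasts into the ring that seals the resorbing cell to bone. Agap1 encodes a GTPase-activating protein for ARF proteins, which control membrane traffic. Odf3l1 encodes a relative of a sperm tail protein.

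Libraries held an estimated 18.4 to 20.0 M reads. The values of the 9 genes were within 0.02 reads of whole multiples of the worth of 1 read. For 5 genes this used the GENCODE exon length, and for the other 4 (Nt5e, Mical2, Agap1 and Odf3l1) a length searched so that the reads came out whole. On these lengths the values rest on 11 reads (Odf3l1 in a PBS library at 48 h) to 2035 reads (Mical2 in a library of vesicles plus RANKL at 72 h) per library. Macrophage markers summed to 2124 to 3338 RPKM in the libraries with RANKL and to 6131 to 8285 RPKM in those without it. Lyz2 was the highest of them, at up to 6084 RPKM, so the sums mostly follow Lyz2 and single markers differed. At 72 h Csf1r was at 310 to 349 RPKM with vesicles plus RANKL and 243 to 251 RPKM with PBS. Adgre1 was then at 25.7 to 33.3 RPKM with RANKL and 20.8 to 22.9 RPKM with PBS. Cd68 was lower, at 782 to 1126 RPKM with RANKL and 1127 to 1271 RPKM with PBS. Of the 10 osteoclast markers 9 were tested, and their sum at 48 h was 490 to 634 RPKM with vesicles plus RANKL, 83.7 to 92.5 RPKM with vesicles, 280 to 298 RPKM with RANKL and 17.5 to 19.2 RPKM with PBS. At 72 h it was 1097 to 1604 RPKM with vesicles plus RANKL, 97.0 to 126 RPKM with vesicles, 456 to 836 RPKM with RANKL and 18.6 to 19.4 RPKM with PBS. The part of the macrophage and osteoclast markers in the results on the 9 genes was not tested. No marker of epithelial, stromal or lymphoid cells passed the filter, with highest values of 0.252 RPKM for Met, 0.867 RPKM for Runx2 and 0.143 RPKM for Cd79a. Of the granulocyte markers S100a8 alone passed it, at up to 1.64 RPKM. In 5 libraries, both of vesicles at 72 h, both of vesicles plus RANKL at 72 h and replicate 2 of RANKL at 72 h, 10.6% to 11% of the summed RPKM came from ribosomal protein genes, against 7.83% to 9.39% in the other 11. At 72 h this division runs between all libraries of vesicles and all of PBS, and it leaves vesicles plus RANKL and vesicles on the same side. What the division reflects was not tested.

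The genes lie on 6 chromosomes. In GRCm38 (GENCODE M21), Gna15 lies at chr10:81502306-81524225 on the minus strand and Chst3 on the same strand at chr10:60181532-60219260. Chromosome 9 holds Nt5e at chr9:88327197-88372092 on the plus strand, and Acsbg1 at chr9:54604877-54661870 and Odf3l1 at chr9:56848659-56864679 on the minus strand. Mical2 lies at chr7:112225856-112413106, Filip1l at chr16:57353093-57573126 and Agap1 at chr1:89454806-89897617, all on the plus strand. Fmnl3 lies at chr15:99317225-99370482 on the minus strand. All are protein-coding, and none has an exon that overlaps an exon of another annotated gene.

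RefSeq (GRCm38.p6) gives 11 start sites for the 9 genes, and each promoter was read as the 300 bases from 250 before to 50 after the start. The letters of 9 motifs were searched on both strands. They were AP-1 as TGANTCA, the cAMP response element (CRE) as TGACGTCA, the NFAT core as GGAAAA, PU.1 as GAGGAAGT, the E-box as CACGTG, the TATA box as TATAAA, and the CArG box, the interferon element ISRE and the NF-kB site in their usual degenerate forms. AP-1, NFAT and NF-kB are families that RANKL signalling works through, and the CArG box is bound by SRF, whose activity Mical2 is known to raise. Of the 11 promoters, 4 hold a match and 7 hold none. Those 4 are shown 5′ to 3′ because they are the windows with a match, with each match in capitals.
Mical2, chr7:112225586-112225885, plus strand: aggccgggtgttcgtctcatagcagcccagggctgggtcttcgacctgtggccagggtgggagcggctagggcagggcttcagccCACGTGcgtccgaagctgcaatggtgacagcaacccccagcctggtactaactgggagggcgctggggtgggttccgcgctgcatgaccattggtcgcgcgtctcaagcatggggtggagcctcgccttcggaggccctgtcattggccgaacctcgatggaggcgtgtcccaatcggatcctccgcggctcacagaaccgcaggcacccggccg
Fmnl3, chr15:99370433-99370732, minus strand: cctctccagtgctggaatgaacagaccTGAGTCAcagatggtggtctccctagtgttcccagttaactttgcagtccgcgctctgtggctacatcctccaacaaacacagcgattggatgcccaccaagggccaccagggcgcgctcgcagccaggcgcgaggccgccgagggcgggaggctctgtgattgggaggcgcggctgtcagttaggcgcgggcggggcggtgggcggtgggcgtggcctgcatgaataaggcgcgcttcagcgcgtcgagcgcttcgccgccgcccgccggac
Acsbg1, chr9:54661836-54662135, minus strand: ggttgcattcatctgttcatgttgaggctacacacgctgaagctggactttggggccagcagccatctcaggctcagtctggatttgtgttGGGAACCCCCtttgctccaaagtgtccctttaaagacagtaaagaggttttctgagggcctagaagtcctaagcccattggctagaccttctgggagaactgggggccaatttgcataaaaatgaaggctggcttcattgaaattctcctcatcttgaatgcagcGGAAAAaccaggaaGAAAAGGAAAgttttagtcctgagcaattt
Filip1l, second start, chr16:57548992-57549291, plus strand: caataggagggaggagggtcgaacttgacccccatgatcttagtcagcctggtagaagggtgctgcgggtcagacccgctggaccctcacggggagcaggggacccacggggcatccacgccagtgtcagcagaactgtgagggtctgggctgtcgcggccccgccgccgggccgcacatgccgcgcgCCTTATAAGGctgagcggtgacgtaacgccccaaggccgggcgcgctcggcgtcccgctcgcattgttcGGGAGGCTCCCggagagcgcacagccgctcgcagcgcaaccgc
The Mical2 window holds an E-box 165 bases before the start, and 7.15% of all 32851 promoters in the table hold this motif. The Fmnl3 window holds an AP-1 match 223 bases before the start, against 7.81% of all promoters. In the Acsbg1 window an NF-kB match begins 159 bases before the start, and an NFAT core and an ISRE match begin 6 and 20 bases after it. These 3 motifs are in 8.46%, 23.4% and 3.44% of all promoters. The second Filip1l start has a CArG box 62 bases before it, a motif of 1.63% of all promoters, and 2 overlapping NF-kB matches in the capitals beginning 7 bases after it. Each of the 9 motifs was matched in at most 2 of the 9 genes. CRE, PU.1 and the TATA box, found in 1.79%, 3.2% and 13.6% of all promoters, were matched in none. GC content ran from 47% to 80% over the 11 windows, against a median of 52.7% over all promoters.

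At 48 h vesicles alone set 8 of the 9 genes above PBS and Filip1l below it, and in all 9 the libraries of vesicles did not overlap those of PBS. The changes below are differences of log2(RPKM + 1) with their standard errors. Without overlap, 32% of all genes tested were higher and 20.6% lower in that comparison, a share from which nothing is read here because the comparison chose the genes. The difference of vesicles from PBS was 1.17 ± 0.19 for Nt5e, 1.06 ± 0.22 for Odf3l1, 0.93 ± 0.13 for Acsbg1, 0.79 ± 0.13 for Chst3 and 0.71 ± 0.15 for Fmnl3. It was 0.62 ± 0.13 for Agap1, 0.61 ± 0.13 for Gna15 and 0.58 ± 0.08 for Mical2, and Filip1l was at -1.47 ± 0.23. RANKL against PBS gave -1.01 ± 0.13 for Gna15, -0.52 ± 0.19 for Nt5e and -0.35 ± 0.13 for Chst3. The other 6 genes lay between -0.16 (Odf3l1) and 0.15 (Acsbg1) with RANKL. Both sets of differences use the same PBS libraries. In a bulk sample, fewer cells that hold an RNA and less of it in each cell cannot be told apart.

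Of 134 genes past an adjusted p of 0.05 for vesicles against PBS at 48 h (1.29% of those tested), 49 had a larger change in size with vesicles than with RANKL, 29 of them higher and 20 lower with vesicles. The 9 genes include 8 of these 49. The excess of the vesicle change over the RANKL change in size ran from 1.45 for Filip1l to 0.45 for Chst3. Just inside the same range was Chst3, with Irf7 (0.44) next below it among genes that were not picked, and Gna15 was outside at -0.40. Genes that were not picked also lie among or above the 9: Angptl2, a secreted glycoprotein, had an excess of 1.59, the sialyltransferase gene St3gal5 1.03 and Serinc2 0.89.

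**Figure D1:**
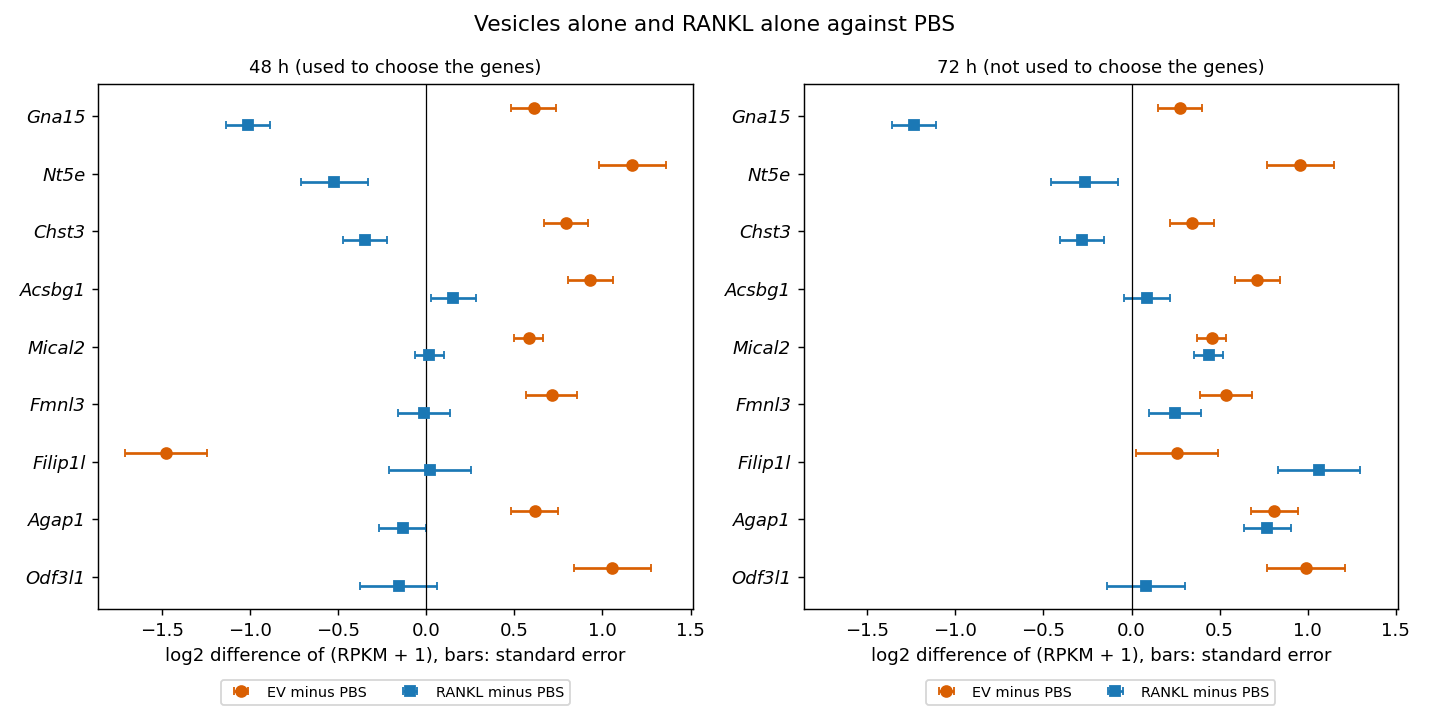
Difference of log2(RPKM + 1) from PBS for vesicles (circles) and RANKL (squares) at 48 h (left) and 72 h (right), with bars of 1 standard error. At 72 h the RANKL points of Mical2 and Agap1 lie at 0.44 and 0.77, beside vesicle points at 0.45 and 0.81. At 48 h their RANKL points lie at 0.02 and -0.13, where the choice of the genes favoured a small RANKL change.

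Gna15 was low wherever RANKL was present. Gna15 at 48 h measured 1.80 and 1.96 RPKM with vesicles plus RANKL, 5.59 and 6.75 RPKM with vesicles, 1.11 and 1.57 RPKM with RANKL, and 3.78 and 3.60 RPKM with PBS. Gna15 at 72 h measured 2.10 and 2.12 RPKM with vesicles plus RANKL, 6.04 and 6.78 RPKM with vesicles, 1.84 and 1.39 RPKM with RANKL, and 5.58 and 4.69 RPKM with PBS. All 8 libraries with RANKL lie below all 8 without it. Gna15 fell with RANKL at 72 h, with a log2 difference of -1.23 ± 0.13 against PBS (limma, adjusted p = 7.29e-05). It fell also beside vesicles, with -1.25 ± 0.13 for vesicles plus RANKL against vesicles (adjusted p = 3.92e-05). Vesicles against PBS at 72 h gave 0.27 ± 0.13 (adjusted p = 0.135), with both libraries of vesicles above both of PBS. Vesicles against RANKL gave 1.51 ± 0.13 (adjusted p = 7.98e-05), a mean 3.97 times as high. PBS itself averaged 3.69 ± 0.13 RPKM at 48 h and 5.14 ± 0.63 RPKM at 72 h (SD, n = 2 each), so the distance of vesicles from PBS was smaller at the later time while vesicles averaged 6.17 ± 0.82 and 6.41 ± 0.52 RPKM.

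Nt5e, the CD73 gene, was highest with vesicles alone. Nt5e at 48 h measured 0.398 and 0.558 RPKM with vesicles plus RANKL, 1.85 and 3.74 RPKM with vesicles, 0.141 and 0.137 RPKM with RANKL, and 0.445 and 0.849 RPKM with PBS. Nt5e at 72 h measured 0.430 and 0.459 RPKM with vesicles plus RANKL, 1.71 and 1.81 RPKM with vesicles, 0.209 and 0.155 RPKM with RANKL, and 0.460 and 0.383 RPKM with PBS. The 4 libraries of vesicles alone stand above the other 12, and the 4 of RANKL alone below the other 12. The values rest on 22 reads to 589 reads. Nt5e passed the filter only through the 4 libraries of vesicles alone, so its tests below are a description and no support for a direction. At 72 h Nt5e rose with vesicles against PBS by 0.96 ± 0.19 (adjusted p = 0.0116), a mean 4.18 times as high, and stood 1.22 ± 0.19 above RANKL (adjusted p = 0.00143), 9.65 times as high. It was lower with vesicles plus RANKL than with vesicles by -0.93 ± 0.19 (adjusted p = 0.00362). RANKL against PBS gave -0.27 ± 0.19 (adjusted p = 0.363), on a scale whose added 1 understates changes of values this low. On the reads rebuilt from the values, a fit chosen after the data were seen, the difference of vesicles from PBS was 2.06 ± 0.38 and that of RANKL from PBS -1.20 ± 0.56 (adjusted p = 0.0083 and 0.156).

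Chst3, the chondroitin sulphotransferase gene, was also lowest with RANKL alone and highest with vesicles alone at each time. Chst3 at 48 h measured 4.07 and 4.49 RPKM with vesicles plus RANKL, 5.83 and 6.59 RPKM with vesicles, 2.18 and 2.36 RPKM with RANKL, and 2.90 and 3.43 RPKM with PBS. Chst3 at 72 h measured 3.72 and 4.70 RPKM with vesicles plus RANKL, 4.95 and 5.72 RPKM with vesicles, 3.43 and 2.78 RPKM with RANKL, and 4.36 and 3.63 RPKM with PBS. Libraries of vesicles plus RANKL overlap those of PBS at 72 h but not at 48 h. Vesicles against RANKL at 72 h passed the test (0.63 ± 0.13, adjusted p = 0.00526). Vesicles against PBS (0.35 ± 0.13, adjusted p = 0.0702) and RANKL against PBS (-0.28 ± 0.13, adjusted p = 0.138) did not, though neither pair of groups overlaps.

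Acsbg1, the acyl-CoA synthetase gene, was high in all 8 libraries with vesicles and low in all 8 without. Acsbg1 at 48 h measured 1.36 and 1.68 RPKM with vesicles plus RANKL, 1.39 and 2.18 RPKM with vesicles, 0.582 and 0.638 RPKM with RANKL, and 0.415 and 0.480 RPKM with PBS. Acsbg1 at 72 h measured 0.862 and 0.984 RPKM with vesicles plus RANKL, 1.02 and 1.03 RPKM with vesicles, 0.316 and 0.307 RPKM with RANKL, and 0.272 and 0.196 RPKM with PBS. These values rest on 14 reads to 147 reads, and every treatment was lower at 72 h than at 48 h without overlap. Acsbg1 passed the filter only through libraries with vesicles, so its tests of vesicles below are a description and no support for a direction. At 72 h it rose with vesicles against PBS by 0.71 ± 0.13 (adjusted p = 0.00979), a mean 4.38 times as high, and exceeded RANKL by 0.63 ± 0.13 (adjusted p = 0.00619). Vesicles added to RANKL gave 0.55 ± 0.13 (adjusted p = 0.0515), a mean 2.96 times as high that missed the threshold. It passed with a pseudocount of 0.1 (adjusted p = 0.0332), with median-ratio scaling (adjusted p = 0.0436), with a replicate block and on the rebuilt reads (adjusted p = 0.0278). In the other 2 of these 6 alternatives it did not pass (adjusted p up to 0.163). On leaving out 1 library the difference was 0.51 to 0.60. With vesicles plus RANKL it fell by 0.39 ± 0.13 at 72 h against 48 h (adjusted p = 0.0309).

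Mical2, the actin-oxidising enzyme, rose with either agent at 72 h and was above PBS with vesicles at 48 h. Mical2 at 48 h measured 7.59 and 7.35 RPKM with vesicles plus RANKL, 6.50 and 7.45 RPKM with vesicles, 4.43 and 4.33 RPKM with RANKL, and 4.13 and 4.51 RPKM with PBS. Mical2 at 72 h measured 9.0 and 8.72 RPKM with vesicles plus RANKL, 6.07 and 5.52 RPKM with vesicles, 5.51 and 5.92 RPKM with RANKL, and 3.92 and 3.99 RPKM with PBS. RANKL overlaps PBS at 48 h and vesicles at 72 h. At 72 h Mical2 rose by 0.45 ± 0.08 with vesicles against PBS (adjusted p = 0.0102) and by 0.44 ± 0.08 with RANKL against PBS (adjusted p = 0.00363). Vesicles plus RANKL stood 0.56 ± 0.08 above RANKL (adjusted p = 0.0147) and 0.54 ± 0.08 above vesicles (adjusted p = 6.6e-04). The difference between vesicles and RANKL at 72 h was 0.02 ± 0.08 (adjusted p = 0.905). Its spread was the smallest of the 9 genes on the log2 scale, and its 828 reads to 2035 reads per library the most.

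Fmnl3, the formin gene, was higher in cultures with vesicles at both times. Fmnl3 at 48 h measured 8.86 and 8.86 RPKM with vesicles plus RANKL, 7.94 and 10.8 RPKM with vesicles, 4.81 and 5.66 RPKM with RANKL, and 4.52 and 6.13 RPKM with PBS. Fmnl3 at 72 h measured 9.47 and 8.66 RPKM with vesicles plus RANKL, 6.19 and 6.71 RPKM with vesicles, 4.55 and 5.68 RPKM with RANKL, and 4.17 and 4.09 RPKM with PBS. All 8 libraries with vesicles lie above all 8 without. At 72 h Fmnl3 rose with vesicles against PBS by 0.54 ± 0.15 (adjusted p = 0.0277) and with vesicles plus RANKL against RANKL by 0.72 ± 0.15 (adjusted p = 0.0317). The first call was lost on leaving out any 1 of the 4 libraries (adjusted p = 0.0641 to 0.166), and the second on leaving out any but replicate 2 of RANKL (adjusted p = 0.0707 to 0.37). Vesicles plus RANKL against vesicles gave 0.43 ± 0.15 (adjusted p = 0.0513), without overlap.

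Filip1l was below PBS with vesicles at 48 h and not at 72 h. Filip1l at 48 h measured 4.17 and 3.75 RPKM with vesicles plus RANKL, 1.90 and 2.61 RPKM with vesicles, 7.03 and 9.41 RPKM with RANKL, and 6.19 and 10.3 RPKM with PBS. Filip1l at 72 h measured 6.42 and 5.84 RPKM with vesicles plus RANKL, 4.58 and 2.56 RPKM with vesicles, 5.98 and 7.70 RPKM with RANKL, and 2.48 and 3.0 RPKM with PBS. Both PBS libraries at 72 h lie below both at 48 h, with means of 8.23 ± 2.88 RPKM at 48 h and 2.74 ± 0.37 RPKM at 72 h (SD, n = 2 each). At 72 h vesicles overlap PBS (0.26 ± 0.23, adjusted p = 0.441). Filip1l stood 1.06 ± 0.23 higher with RANKL than with PBS (adjusted p = 0.00759), with RANKL means of 8.22 RPKM at 48 h and 6.84 RPKM at 72 h. Vesicles were below RANKL by -0.81 ± 0.23 at 72 h (adjusted p = 0.0307). Without replicate 2 of RANKL at 72 h, which stands among the 5 libraries set apart above, the RANKL difference from PBS was 0.90 (adjusted p = 0.0826), and without replicate 1 of PBS at 72 h it was 0.96 (adjusted p = 0.0535). The difference of vesicles from RANKL was -0.48 without replicate 2 of vesicles at 72 h (adjusted p = 0.168) and -0.65 without replicate 2 of RANKL (adjusted p = 0.132).

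Agap1, the ARF regulator, was highest with both agents at 72 h. Agap1 at 48 h measured 2.04 and 1.62 RPKM with vesicles plus RANKL, 2.09 and 2.63 RPKM with vesicles, 1.16 and 0.841 RPKM with RANKL, and 1.1 and 1.28 RPKM with PBS. Agap1 at 72 h measured 5.52 and 4.58 RPKM with vesicles plus RANKL, 2.71 and 2.15 RPKM with vesicles, 2.13 and 2.52 RPKM with RANKL, and 0.951 and 0.946 RPKM with PBS. The 2 libraries of vesicles plus RANKL at 72 h lie above the other 14. At 72 h Agap1 rose by 0.81 ± 0.13 with vesicles against PBS (adjusted p = 0.00706) and by 0.77 ± 0.13 with RANKL against PBS (adjusted p = 0.00202). Vesicles plus RANKL exceeded RANKL by 0.86 ± 0.13 (adjusted p = 0.0169) and vesicles by 0.82 ± 0.13 (adjusted p = 8.8e-04). Between 48 h and 72 h it rose by 1.09 ± 0.13 with vesicles plus RANKL (adjusted p = 9.6e-04), a mean 2.76 times as high at 72 h. With vesicles alone it averaged 2.36 ± 0.38 RPKM at 48 h and 2.43 ± 0.40 RPKM at 72 h (SD, n = 2 each).

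Odf3l1 was higher with vesicles at both times and rests on the fewest reads, 11 reads to 74 reads per library. Odf3l1 at 48 h measured 2.31 and 2.32 RPKM with vesicles plus RANKL, 2.23 and 3.66 RPKM with vesicles, 0.697 and 0.648 RPKM with RANKL, and 0.544 and 1.25 RPKM with PBS. Odf3l1 at 72 h measured 0.896 and 1.79 RPKM with vesicles plus RANKL, 2.01 and 2.79 RPKM with vesicles, 0.864 and 0.744 RPKM with RANKL, and 0.857 and 0.560 RPKM with PBS. All 8 libraries with vesicles are above the RANKL and PBS libraries of the same time. Without libraries with vesicles Odf3l1 would not have passed the filter, so its tests below are a description and no support for a direction. At 72 h Odf3l1 rose with vesicles by 0.99 ± 0.22 against PBS (adjusted p = 0.0147) and stood 0.91 ± 0.22 above RANKL (adjusted p = 0.0139). The call against RANKL was lost without replicate 2 of vesicles (0.74, adjusted p = 0.0618) or replicate 2 of RANKL (0.86, adjusted p = 0.0516). Vesicles plus RANKL against RANKL gave 0.35 ± 0.22 (adjusted p = 0.382), with the libraries of vesicles plus RANKL far apart from each other.

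**Figure D2:**
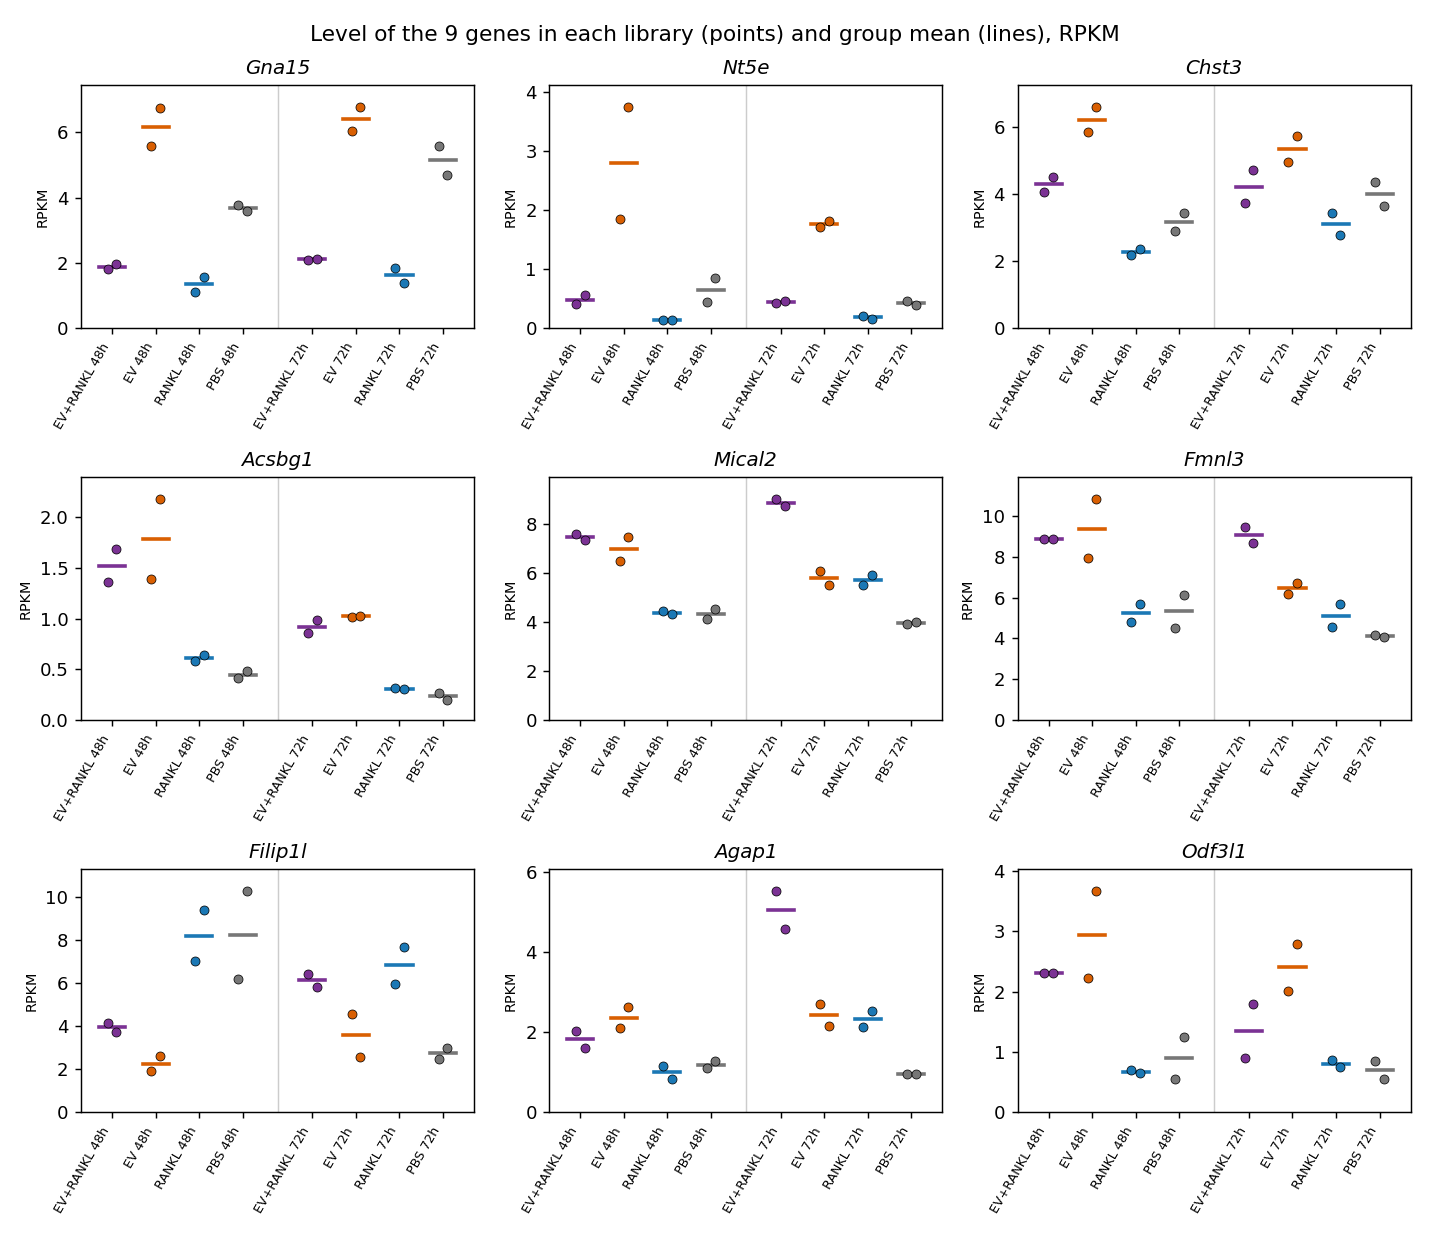
Level of each of the 9 genes in RPKM (vertical axes from 0) in every library (points), with group means (lines), for vesicles plus RANKL, vesicles, RANKL and PBS at 48 h and 72 h. Gna15 is low in the 8 libraries with RANKL, Acsbg1 and Fmnl3 are high in the 8 with vesicles, and Agap1 peaks with both agents at 72 h, at 4.58 and 5.52 RPKM.

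None of the 72 h libraries entered the choice of the genes. At that time vesicles against PBS had the same sign as at 48 h in 8 of the 9 genes, the exception being Filip1l, and 6 of the 9 passed the test, all higher. Among all genes tested 18.3% passed, 10.4% higher. The 6 are Nt5e, Odf3l1, Agap1, Acsbg1, Fmnl3 and Mical2, and the median difference over the 9 was 0.54, against 0.03 over all genes tested. Libraries of vesicles lay above those of PBS without overlap in 8 of the 9, against 33.5% of all genes. Nt5e, Acsbg1 and Odf3l1 needed libraries with vesicles to reach the filter. These counts and the median are therefore a description and no support for a direction. With no filter on low values Nt5e, Acsbg1 and Odf3l1 still passed (adjusted p = 0.0301, 0.0181 and 0.0411), while Fmnl3 did not (adjusted p = 0.0654). With only the groups compared, which takes the 48 h libraries that chose the genes out of the spread, 0 of the 9 passed. All 6 calls were lost without replicate 1 of vesicles (55 genes called in all) or replicate 2 of PBS (36 genes called), with differences of 0.40 to 1.15 in these fits. No part of this comparison lies on 1 side of the ribosomal protein division, so no value within it can be given.

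RANKL against PBS at 72 h passed in 4 of the 9 genes, against 18.9% of all genes (9.73% higher and 9.13% lower). Filip1l, Agap1 and Mical2 were higher than with PBS and Gna15 was lower. For Filip1l the RANKL mean was 8.22 RPKM at 48 h and 6.84 RPKM at 72 h, while the PBS mean was 8.23 RPKM and 2.74 RPKM. At 48 h the RANKL libraries of Filip1l, Agap1 and Mical2 had overlapped those of PBS. Nothing is read from this, since the choice of the genes favoured a small RANKL change at 48 h. Without replicate 2 of RANKL, which leaves only libraries of lower ribosomal protein share, 3 of the 4 calls were made.

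Vesicles against RANKL at 72 h passed in 6 of the 9 genes, against 18.6% of all genes (11.3% higher and 7.29% lower). Gna15, Nt5e, Odf3l1, Chst3 and Acsbg1 were higher with vesicles and Filip1l was lower. The other 3, Mical2 (0.02), Agap1 (0.04) and Fmnl3 (0.29 ± 0.15, adjusted p = 0.191), did not pass, and the libraries of Mical2 and Agap1 overlapped. Nt5e, Acsbg1 and Odf3l1 needed libraries with vesicles to reach the filter, so these counts are a description and no support for a direction. Without replicate 1 of RANKL, which leaves only libraries of higher ribosomal protein share, 6 of the 9 passed. At 48 h, where these libraries chose the genes, the same difference lay between 0.56 (Mical2) and 1.69 (Nt5e) for the 8 higher genes and at -1.5 for Filip1l.

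Vesicles added to RANKL at 72 h raised 3 of the 9 genes, Agap1, Fmnl3 and Mical2, where 1.83% of all genes tested passed (1.30% higher). Differences were above 0 in 8 of the 9, Filip1l being at -0.13 ± 0.23, and 8 were higher without overlap, against 20.8% of all genes. Since Nt5e, Acsbg1 and Odf3l1 needed libraries with vesicles to reach the filter, these counts too are a description. The calls were lost without replicate 1 of RANKL (9 genes called in all), which leaves only libraries of higher ribosomal protein share, and without replicate 1 of vesicles plus RANKL (5 genes called). That of Fmnl3 was lost also without replicate 2 of vesicles plus RANKL (adjusted p = 0.0707). The differences without replicate 1 of RANKL were 0.77 for Agap1, 0.59 for Fmnl3 and 0.51 for Mical2. At 48 h the difference of vesicles plus RANKL from RANKL was above 0 in 8 of the 9 genes, from 0.31 for Gna15 to 0.99 for Odf3l1, and -0.88 for Filip1l, all without overlap, where 22.1% of all genes were higher and 21.8% lower without overlap. Nothing is read from this share, since the RANKL libraries at 48 h were among those that chose the genes.

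RANKL added to vesicles at 72 h divided the genes. Vesicles plus RANKL against vesicles passed in 4 of the 9, where 22.0% of all genes passed (9.05% higher and 12.9% lower). Agap1 and Mical2 were higher and Gna15 and Nt5e lower. No gene of the 9 had overlapping libraries, with 4 higher and 5 lower, against 23.1% and 31.2% of all genes. Nt5e passed the filter only through libraries of vesicles alone, so these counts are a description. The libraries of both groups compared all lie on the side of higher ribosomal protein share. The calls of Gna15, Nt5e, Agap1 and Mical2 were made on leaving out any 1 of the 4 libraries.

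The departure from additivity at 72 h, the vesicle difference with RANKL minus that without, passed in 0 of the 9 genes with limma and in 0 by voom on the rebuilt reads. Nt5e alone had an unadjusted p below 0.05 (-0.67 ± 0.27, adjusted p = 0.464). Odf3l1 was at -0.64 ± 0.31 (adjusted p = 0.561) and Filip1l at -0.39 ± 0.33 (adjusted p = 0.747). The other 6 lay between -0.16 and 0.19. Of all genes tested 0.00965% passed, which is 1 gene, and 959 had an unadjusted p below 0.05.

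**Figure D3:**
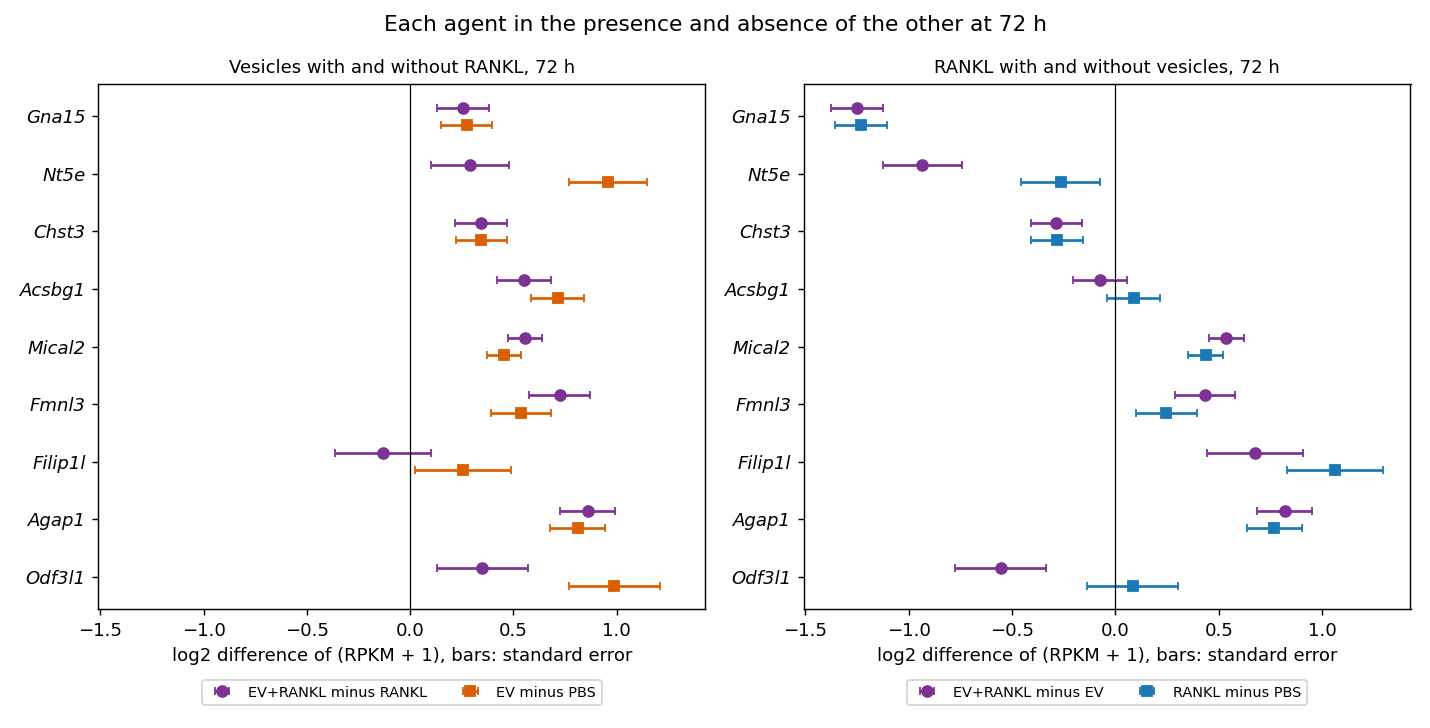
Difference of log2(RPKM + 1) at 72 h, with bars of 1 standard error. Left, vesicles added to RANKL (circles) and to PBS (squares). Right, RANKL added to vesicles (circles) and to PBS (squares). The circles and squares of Gna15, Chst3, Mical2 and Agap1 nearly coincide in both panels, and those of Nt5e lie 0.67 apart.

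Between 48 h and 72 h of vesicles plus RANKL, 2 of the 9 genes passed, against 38.9% of all genes (17.4% higher and 21.5% lower). Agap1 rose and Acsbg1 fell. Odf3l1 (-0.53 ± 0.22, adjusted p = 0.0752), Filip1l (0.52 ± 0.23, adjusted p = 0.0911) and Mical2 (0.22 ± 0.08, adjusted p = 0.0533) did not pass, without overlap between the times. The Acsbg1 call was lost on leaving out replicate 2 at 48 h (adjusted p = 0.213) or either replicate at 72 h (adjusted p = 0.163 and 0.0631).

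The 9 genes did not share a pattern over the 16 libraries. The 36 correlations between them ran from -0.78 (Chst3 and Filip1l) to 0.89 (Mical2 and Fmnl3), with a median of 0.47, and 26 were above 0. The points share groups and libraries, so these are a description. Mical2, Fmnl3 and Agap1 went together (0.68 to 0.89), as did Gna15, Nt5e and Chst3 (0.73 to 0.84), and Acsbg1 and Odf3l1 were at 0.89. Between the first 3 and the next 3 the correlations ran from -0.14 to 0.58. Within vesicles at 48 h, a group that chose the genes, replicate 2 was above replicate 1 in all 9 genes, including Filip1l, against 57.8% of all genes tested.

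**Figure D4:**
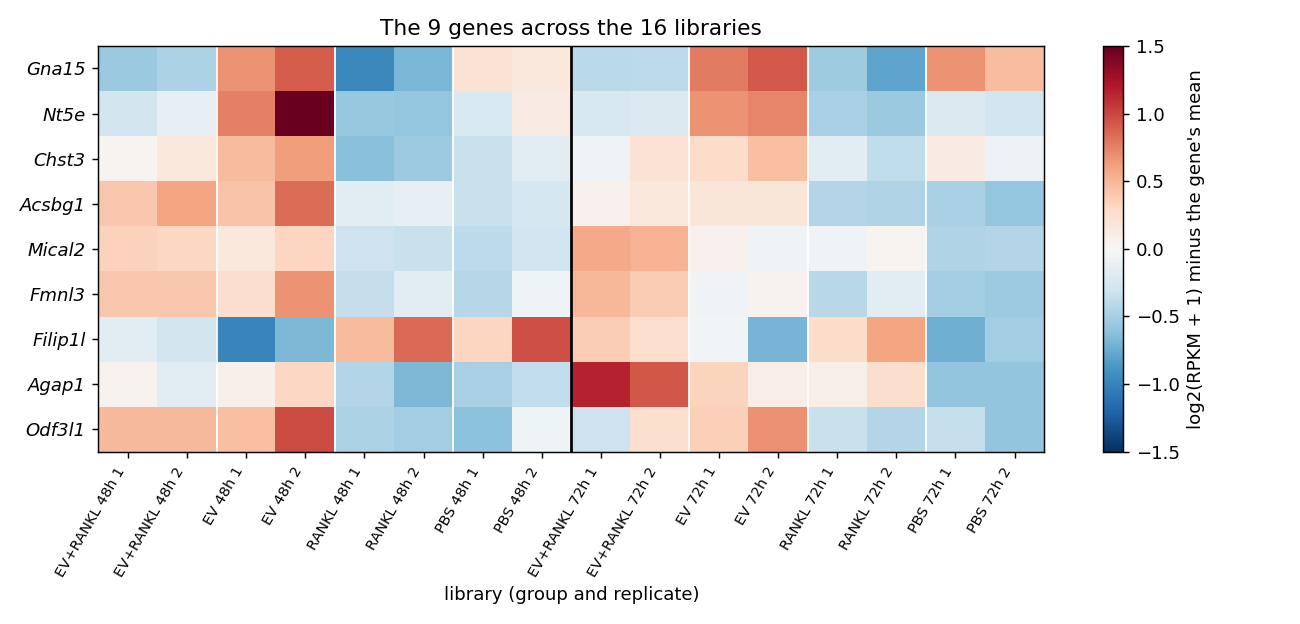
Log2(RPKM + 1) of each gene minus its mean over the 16 libraries (colour scale from -1.5 to 1.5), for each library of vesicles plus RANKL, vesicles, RANKL and PBS at 48 h and then 72 h. Gna15, Nt5e and Chst3 are high with vesicles alone, Mical2, Fmnl3 and Agap1 with vesicles plus RANKL at 72 h, and Filip1l runs against Chst3. Fmnl3 is also high at 48 h with vesicles, with or without RANKL, and Gna15 is also above its mean with PBS at 72 h.

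The tested genes whose levels followed each member most closely over the 16 libraries, by Pearson's r of log2 values, were as follows. Gna15 was followed by Mcf2l (0.94). Nt5e was followed by Pald1 (0.91) and H2-DMa (0.89), a helper of peptide loading on MHC class II. Mical2 was followed by the galactosyltransferase gene B4galt1 (0.98) and by Angptl2 (0.97). Agap1 was followed by the growth factor gene Pdgfa (0.97) and the lipid carrier gene Apoe (0.96). Filip1l was followed by the kinase gene Dapk1 (0.95) and by Id2 (0.86), an inhibitor of helix-loop-helix factors. Fmnl3 was followed by Ttc9 and by the endoglin gene Eng (0.91 each). Chst3 was followed by Spata13 (0.86) and Odf3l1 (0.85). Acsbg1 was followed by Odf3l1 and Fmnl3 (0.89 each), and Odf3l1 by Acsbg1 and Chst3.

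Genes of the same pathways were counted in 7 lists built around the 9 genes, which hold 131 tested genes besides them. For vesicles against PBS, 3 of the 131 passed at 48 h (2.29%, against 1.29% of all genes) and 23 at 72 h (17.6%, against 18.3%), 10 higher and 13 lower. RANKL against PBS passed in 38 at 48 h (29.0%, against 14.8% of all genes) and 39 at 72 h (29.8%, against 18.9%). Vesicles against RANKL passed in 23 at 48 h (17.6%, against 6.95% of all genes) and in 38 at 72 h (29.0%, against 18.6%). The list genes named below are those with the smallest p for vesicles against PBS, unless said otherwise. The 72 h calls of that comparison rest on the libraries named above, without which 36 or 55 of all genes passed.

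Around Gna15, the list of G protein alpha subunits and phospholipase C beta had 21 tested genes, of which 1 rose with vesicles against PBS at 48 h and 5 at 72 h, with none lower. The phospholipase gene Plcb4 rose at both times, by 0.91 ± 0.15 at 48 h (adjusted p = 0.0123) and 0.70 ± 0.15 at 72 h (adjusted p = 0.0138), and by 1.66 with RANKL at 72 h. At 72 h Gnas, the stimulatory alpha subunit, Plcb2 and Rgs10, which speeds GTP hydrolysis, rose with vesicles (0.43, 0.50 and 0.82) and with RANKL (0.55, 0.69 and 1.1). Of these 4, none was lower with RANKL. The fifth gene that rose with vesicles at 72 h was Arhgef1, named after its value was seen. Rgs16 stood 1.56 ± 0.38 higher with vesicles at 48 h (adjusted p = 0.0734) and 0.85 higher at 72 h (adjusted p = 0.129). With RANKL it rose by 1.70 at 48 h (adjusted p = 0.00956) and 1.96 at 72 h (adjusted p = 0.00413).

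Around Nt5e, the list of extracellular nucleotide and adenosine genes had 17 tested genes, of which 0 passed at 48 h for vesicles against PBS with limma (5 at an unadjusted p below 0.05, and 0 by voom) and 1 at 72 h. That gene, the nucleotidase Entpd7, fell by 0.47 ± 0.12 (adjusted p = 0.0248). The adenosine receptor gene Adora2b was 0.78 ± 0.21 higher with vesicles at 48 h (adjusted p = 0.111) and 0.52 ± 0.21 at 72 h (adjusted p = 0.0989), and the nucleoside transporter gene Slc29a3 was 0.55 ± 0.18 higher at 48 h (adjusted p = 0.214). P2ry2, a receptor for ATP and UTP, stood 0.39 ± 0.11 higher with vesicles than with RANKL at 72 h (adjusted p = 0.0261). Against PBS it did not pass with vesicles at 48 h (-0.29, adjusted p = 0.305) or 72 h (0.09, adjusted p = 0.592). RANKL against PBS gave -0.83 at 48 h (adjusted p = 2.96e-04) and -0.31 at 72 h (adjusted p = 0.0703). RANKL also raised Slc29a3 at 72 h (0.84, adjusted p = 0.00799), and Adora2b stood 0.55 higher with it at 48 h (adjusted p = 0.108).

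Around Chst3, the chondroitin list had 19 tested genes, of which Xylt2, which starts the sugar chain, fell with vesicles against PBS at 48 h (-0.42 ± 0.09, adjusted p = 0.0457). At 72 h 1 rose, the linkage enzyme gene B4galt7 (0.41 ± 0.12, adjusted p = 0.036), and 3 fell, among them the sulphotransferase gene Chst12 (-0.64 ± 0.15, adjusted p = 0.0155) and B3gat3 (-0.27 ± 0.09, adjusted p = 0.0459). The third was Fam20b, named after its value was seen. For vesicles against RANKL at 72 h 8 were higher and 1 lower, against 11.3% and 7.29% of all genes tested. RANKL against PBS gave 1 higher and 7 lower at 48 h, and 1 higher and 4 lower at 72 h. Dse, an epimerase, was 0.54 ± 0.13 higher with vesicles than with RANKL (adjusted p = 0.0157), whereas Chpf was lower (-0.61 ± 0.18, adjusted p = 0.0351). RANKL against PBS at 72 h lowered Dse (-0.63, adjusted p = 0.00712) and Chst12 (-0.77, adjusted p = 0.00358) and raised Chpf (1.08, adjusted p = 0.00178). At 48 h it lowered Xylt2 (-1.12, adjusted p = 1.5e-05).

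Around Mical2, Fmnl3 and Filip1l, the actin list had 24 tested genes. With vesicles against PBS the actin gene Actg1 fell at 48 h (-0.69 ± 0.12, adjusted p = 0.0128), and 1 rose and 4 fell at 72 h. Msrb1, the one that rose and a reductase of oxidised methionine, was named after its value was seen. Those that fell were Actb (-0.53 ± 0.12, adjusted p = 0.0142), Actg1 (-0.41, adjusted p = 0.0327), the actin-binding profilin gene Pfn1 (-0.67, adjusted p = 0.0109) and Srf (-0.48, adjusted p = 0.0147), the transcription factor of actin genes. Mical2 and Fmnl3 rose in the same comparison. Micall2 was 0.48 higher at 48 h (adjusted p = 0.0774) and the formin gene Fhod3 0.36 higher (adjusted p = 0.154). RANKL against PBS at 72 h also lowered Actb (-0.39, adjusted p = 0.0348) and Actg1 (-0.42, adjusted p = 0.027). Pfn1 (-0.09, adjusted p = 0.672) and Srf (-0.26, adjusted p = 0.107) did not pass there.

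Around Acsbg1, the fatty acid list had 23 tested genes, of which 0 passed for vesicles against PBS at 48 h with limma (2 at an unadjusted p below 0.05, and 0 by voom), while 2 rose and 1 fell at 72 h. The fatty acid transporter gene Slc27a1 rose by 0.93 (adjusted p = 0.012), Cpt2 of the mitochondrial carnitine system by 0.49 (adjusted p = 0.0365), and Acadl, a dehydrogenase of fatty acid oxidation, fell by 0.30 (adjusted p = 0.0307). The binding protein gene Fabp5 was 1.61 higher with vesicles than with RANKL at 72 h (adjusted p = 5.15e-04). Against PBS at 72 h Fabp5 fell with RANKL (-1.09, adjusted p = 0.00351) and did not pass with vesicles (0.52, adjusted p = 0.0925). Cpt2 rose with RANKL too (0.49, adjusted p = 0.0336). Around Agap1, 25 genes of ARF regulation and AP-3 were tested, with 0 past the threshold at 48 h with limma (3 at an unadjusted p below 0.05, and 1 by voom) and 1 higher and 4 lower at 72 h for vesicles against PBS. Arfgap1 rose by 0.35 (adjusted p = 0.0342), and the AP-3 subunit genes Ap3m1 and Ap3s2 fell by 0.37 and 0.28 (adjusted p = 0.0347 and 0.0384). Arf3 and Arf4, named after their values were seen, fell too. Asap1 stood at -0.38 at 48 h (adjusted p = 0.0548). Of the outer dense fibre list around Odf3l1, Odf2 and Odf2l were tested, and for vesicles against PBS at 72 h they gave 0.00 and 0.22 (adjusted p = 0.977 and 0.103).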

How the data were processed

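RNA was measured in 16 libraries of RAW264.7 cells, 2 in each of 8 groups. The authors deposited log2 values per gene. The labels state no unit, and the values themselves were found to be log2(RPKM + 1). The submitters' processing notes name FastQC, HISAT2, Partek and the human build GRCh38 (hg38). The sources used here give no mouse build, annotation or counting method. One column's name lacks the letter for RANKL and was matched to its group alone. Genes with at least 1 RPKM in at least 2 libraries were fitted on the log2 scale, pseudocount 1, with limma 3.58.1 (R 4.3.3), 1 mean per group and a variance trend. P-values were adjusted by Benjamini-Hochberg over 10365 genes, with a threshold of 0.05. They measure only the spread between libraries, which may be technical. For a single gene, an exact permutation test of 2 against 2 libraries cannot go below 0.333, so none was used. The 7 comparisons are between groups that did not choose the genes. Vesicles plus RANKL against PBS at 72 h is also of this kind and was not tested. The spread of each gene came from all 16 libraries, so the 7 tests share it with the 48 h libraries that chose the genes. With only the groups compared, the members that passed at 72 h went from 6 to 0 for vesicles against PBS. For vesicles plus RANKL against RANKL they went from 3 to 0. The fit was checked on simulated data. Locations are from GENCODE M21 and promoters from RefSeq. List genes were named by the 3 smallest p for vesicles against PBS at each time, and genes of like pattern by the 2 highest r. One gene of like pattern is not reported here. The members and lists were chosen with earlier results of these data known. The test foreseen for counts was not needed, since the values are normalized. Alternatives were another pseudocount, no filter, median-ratio scaling, a replicate block, only the groups compared, each library left out, and limma's voom on reads rebuilt from the values.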

Additional observations from a re-analysis of the deposited data

Results flagged for a closer look

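In 2 genes the difference of vesicles plus RANKL from another group had opposite signs at 48 h and 72 h, with no overlap of the libraries at either time. The difference between the times was not tested in either gene, since the 48 h libraries chose the genes. Agap1 with vesicles plus RANKL against vesicles had a log2 difference of -0.25 ± 0.13 at 48 h and 0.82 ± 0.13 at 72 h, which lie 1.07 apart. At 48 h its nearest libraries were at 2.04 and 2.09 RPKM. Without overlap, 26.6% of all genes tested were lower in that comparison at 48 h and 23.1% higher at 72 h. Filip1l with vesicles plus RANKL against PBS had -0.86 ± 0.23 at 48 h and 0.93 ± 0.23 at 72 h, which lie 1.79 apart. Without overlap, 26.6% of all genes tested were lower in that comparison at 48 h and 35.1% higher at 72 h. How many genes tested do both in either comparison was not counted. Between these times the Filip1l mean of PBS itself went from 8.23 to 2.74 RPKM, and that of vesicles plus RANKL from 3.96 to 6.13 RPKM.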

How the results depend on the processing

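No difference of a member changed sign while past the threshold on either side, in 288 fits without 1 library and 378 fits under the other alternatives. Direction and side of the threshold were kept in 254 and 346 of these, the call was lost in 30 and 16, and a call was made in 4 and 16. With only the groups compared, which leaves fewer libraries for the spread, the counts of all genes called were 10 for vesicles against PBS at 72 h (1895 in the fit of all groups), 412 for RANKL against PBS (1954), 433 for vesicles against RANKL (1924), 8 for vesicles plus RANKL against RANKL (190), 1136 for vesicles plus RANKL against vesicles (2278) and 0 for the departure from additivity (1). The members called were then 0 for vesicles against PBS (6 with all groups), 3 for vesicles against RANKL (6), 0 for vesicles plus RANKL against RANKL (3) and 4 for 72 h against 48 h of vesicles plus RANKL (2). A pseudocount of 0.1 gave 124 genes for vesicles plus RANKL against RANKL. For the departure from additivity, testing 18060 genes with no filter gave 30 and voom, chosen after seeing the data and run on 9913 genes, gave 2. The causes of these last 3 were not tested. Median-ratio scaling moved the median of all genes by at most 0.0628. The labels give no meaning to the replicate numbers. Over 28 pairs of groups the difference of replicate 2 from 1 correlated across genes at -0.115 to 0.529 (median 0.151), with 17 pairs over 0.1 and 11 not, so the numbers were not taken to pair the libraries, although most pairs of groups deviated together. The fit with the replicate block called 313 genes for vesicles plus RANKL against RANKL, 4 for the departure from additivity and 4 members for 72 h against 48 h. It passed Acsbg1 for vesicles plus RANKL against RANKL (adjusted p = 0.0364). Leaving out 1 library, where the lone library left in a group was taken to vary like the other groups, gave 36 to 2918 genes and 0 to 5 members for vesicles against PBS, and 738 to 2854 genes and 3 to 4 members for RANKL against PBS. It gave 831 to 2689 genes and 4 to 6 members for vesicles against RANKL, 5 to 1815 genes and 0 to 4 members for vesicles plus RANKL against RANKL, 1245 to 2282 genes and 4 to 5 members for vesicles plus RANKL against vesicles, 0 to 64 genes and 0 members for the departure from additivity, and 1423 to 3231 genes and 1 to 2 members for 72 h against 48 h. With 11 to 74 reads per library behind Odf3l1 and 14 to 147 behind Acsbg1, counting error limits those genes most.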
